A study of Mus musculus with 6 samples.

Results

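The immediate early genes Fos, Fosb, Jun, Junb, Egr1, Atf3, Ier2, Nr4a1, Nr4a2 and Zfp36 were followed through the cells of the mouse genioglossus, the tongue muscle that helps to hold the upper airway open. They were chosen by gene symbol, and all 10 were found among the 33696 genes counted in each library. Droplet single-cell RNA sequencing libraries came from male mice of an obstructive sleep apnea (OSA) model group and from a control group, both at week 4 after modelling. The 3 OSA libraries (replicates 1, 2 and 3) and control replicate 2 were used. Control replicates 1 and 3 were not analysed here. Every library carried the label of batch 1. The labels give no strain, age or allele, and no account of how the model was made. Nor do they say that libraries came from separate animals, so a p-value here measures only the spread from library to library, which may be technical. With 1 control library, its own spread was unknown and was assumed to be that of the OSA libraries.

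Immediate early genes are transcribed within minutes of a stimulus, from factors that are already present in the cell, and need no new protein synthesis. Growth factors, calcium, stretch, hypoxia, cytokines and injury all start them. Their products are mostly transcription factors and regulators of RNA stability that shape the later response. The enzymatic and mechanical release of cells from a solid tissue also starts them, and in satellite cells of mouse muscle the set is a known mark of tissue dissociation. The level in a dissociated cell can therefore hold transcripts made in the animal and transcripts made at the bench, and the counts do not separate them.

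The kept libraries held 15218, 12229 and 13736 cells in OSA replicates 1, 2 and 3 and 13275 cells in control replicate 2. Their totals were 78935592, 74007952 and 82184912 UMIs (unique molecular identifiers, 1 for each captured transcript) in OSA and 70217448 UMIs in the control. Cells were grouped by transcripts, with the 10 genes and their relatives left out of the grouping, and each class is written with "-like" because its name rests on marker transcripts alone. The submitters label the material as skeletal muscle cells. No cluster was named for myofibres, and satellite-like cells, the muscle stem cells, numbered 302, 269 and 311 in OSA and 265 in the control. Of the 10 classes with at least 30 kept cells in every library, 7 had at least 100. Lymphatic endothelial-like, neutrophil-like and T and NK-like cells were the smaller classes, with a lowest count of 97, 43 and 84 cells.

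For 5 of the genes the 150 bases before the annotated start are shown, 1 or 2 for each role described next: a Fos family member, the stress-induced Atf3, both NR4A receptors and the RNA-binding Zfp36. The sequences are from RefSeq on GRCm38.p6, the build of the table, whereas the counts were made on GRCm39. Entries matched 8 of the 10 genes, all but Egr1 and Ier2. Capitals mark TGACG on either strand, the core of the site bound by CREB family factors, or the CArG box, the site of serum response factor.
Fos (chr12:85473740-85473889, plus strand): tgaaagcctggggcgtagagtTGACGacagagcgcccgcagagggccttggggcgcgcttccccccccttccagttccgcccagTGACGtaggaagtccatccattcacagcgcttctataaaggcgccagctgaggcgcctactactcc
Atf3 (chr1:191183334-191183483, minus strand): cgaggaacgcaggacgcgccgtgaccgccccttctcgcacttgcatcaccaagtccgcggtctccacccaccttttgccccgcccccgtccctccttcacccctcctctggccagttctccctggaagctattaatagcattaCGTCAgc
Nr4a1 (chr15:101266696-101266845, plus strand): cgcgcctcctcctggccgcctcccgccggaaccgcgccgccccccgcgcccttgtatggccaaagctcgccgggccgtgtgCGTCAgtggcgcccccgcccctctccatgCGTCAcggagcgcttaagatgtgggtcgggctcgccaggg
Nr4a2 (chr2:57124004-57124153, minus strand): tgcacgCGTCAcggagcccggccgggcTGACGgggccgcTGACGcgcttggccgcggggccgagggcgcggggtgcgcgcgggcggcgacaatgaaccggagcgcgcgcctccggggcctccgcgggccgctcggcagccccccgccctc
Zfp36 (chr7:28379229-28379378, minus strand): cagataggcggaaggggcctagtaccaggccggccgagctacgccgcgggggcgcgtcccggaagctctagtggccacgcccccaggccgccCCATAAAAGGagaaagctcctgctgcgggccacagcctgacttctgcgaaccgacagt

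TGACG was present within 250 bases before the start in 6 of the 8 promoters, and in 17.8% of all 32851 promoters of the table. It was searched after the promoters had been seen. In Fos it lay at -66 and -129 from the start, in Atf3 at -7, in Fosb at -60 and in Junb at -106. Nr4a1 and Nr4a2 had 4 matches each. The palindrome TGACGTCA, which contains TGACG on both strands, was in 0 of the 8 promoters and in 1.55% of all promoters. The AP-1 site TGANTCA was in 0 of 8 against 6.75%. The CArG box was in 1 of 8, that of Zfp36 at -58, against 1.47%. A match of letters in this window is not a shown binding site, and sites farther away were not searched.

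The AP-1 genes were among the most abundant of the 10. Levels are given as CPM, the gene's UMIs per 1000000 UMIs of the class in a library, on the unscaled class total. Fos, the inducible partner of the Jun proteins, ranged over the 4 libraries from 7993 to 10770 CPM in tenocyte-like cells, the class with the highest median, and from 1140 to 1636 CPM in T and NK-like cells, the class with the lowest. The class medians of Fos ran in the order tenocyte, Schwann, fibroblast, satellite, lymphatic endothelial, mural, endothelial, macrophage, neutrophil, and T and NK. Only the mural-like and endothelial-like neighbours in that order had ranges that did not overlap. Fosb, another partner of the Jun proteins, had its highest median in satellite-like cells (1767 to 3016 CPM) and its lowest in neutrophil-like cells (245.7 to 881.2 CPM). Jun, the main partner of Fos, was highest in tenocyte-like cells (3089 to 4836 CPM) and lowest in T and NK-like cells (429.2 to 914.4 CPM), and no neighbours in its order were apart. Junb, which can dampen or replace Jun, differed least between classes, with a 1.81-fold span of medians, from 1552 CPM in endothelial-like cells to 2815 CPM in tenocyte-like cells. Atf3, a stress-induced factor that binds the same family of sites, had medians from 310.5 CPM in T and NK-like cells to 1866 CPM in fibroblast-like cells.

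The other genes had class patterns of their own. Egr1, a zinc finger factor induced by growth factor and stress signals, was highest in fibroblast-like cells (1482 to 2416 CPM) and lowest in T and NK-like cells (145.5 to 252.1 CPM), a 10.2-fold span of medians. Ier2, a short-lived nuclear protein, had medians from 305.2 CPM in macrophage-like cells to 928.7 CPM in fibroblast-like cells. The NR4A genes encode nuclear receptors that act without a known classical hormone. Nr4a1 was highest in fibroblast-like cells (616.7 to 855.8 CPM), next to T and NK-like cells (566.0 to 753.3 CPM), and lowest in endothelial-like cells (124.4 to 169.6 CPM). Nr4a2 was highest in Schwann-like cells, which sheathe nerve fibres. It stood at 770.7, 704.1 and 632.5 CPM there in OSA replicates 1, 2 and 3 and at 757.0 CPM in the control, apart from the next class, T and NK-like cells, at 219.0 to 358.1 CPM. Zfp36, which binds AU-rich transcripts and speeds their decay, had its highest median in neutrophil-like cells (596.0 to 1856 CPM). Tenocyte-like and fibroblast-like cells followed, and fibroblast-like cells were apart from endothelial-like cells, the next in order. These orders are descriptions without a test.

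**Figure D1:**
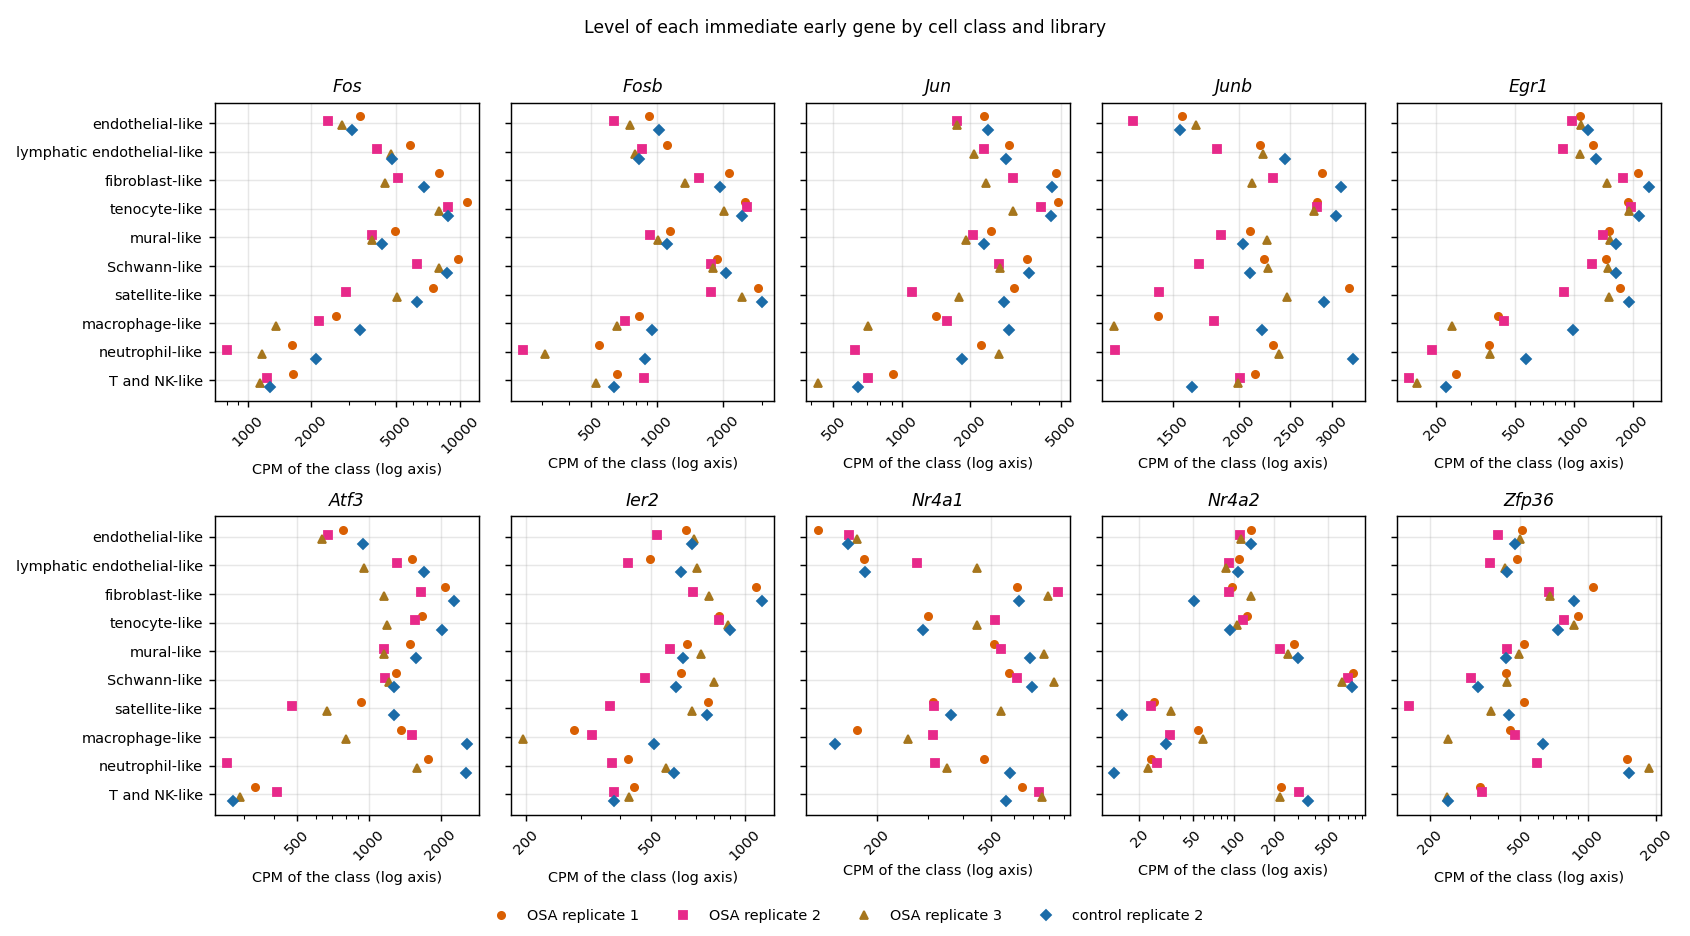
Level of each of the 10 genes in each cell class, in CPM on a log axis. Points are single libraries (OSA replicates 1, 2 and 3, then control replicate 2). Nr4a2 in Schwann-like cells stands above all other classes, at 632.5 to 770.7 CPM.

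Across classes Fos, Jun, Egr1 and Ier2 followed the mean of the other genes most closely. Over 40 sums (10 classes in 4 libraries), the Pearson correlation of log2 levels with the mean of the other 9 genes was 0.86 for Jun, 0.85 for Fos, 0.82 for Egr1 and 0.82 for Ier2. It was 0.72 for Junb, 0.70 for Fosb and 0.63 for Atf3, and 0.35 for Zfp36, 0.19 for Nr4a1 and 0.05 for Nr4a2. Among 7125 genes compared, the 8 outside the set with the highest correlation to its mean were Copz2 (0.84), Socs3 (0.80), Pals1 (0.80), Lhfp (0.79), Selenom (0.79), Kdelr3 (0.79), Osbpl1a (0.78) and Sspn (0.78). Socs3, a feedback inhibitor of cytokine signalling, is itself an early response gene. The sums share libraries, depth and cell classes, so the values describe a pattern over cell types and carry no p.

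Between OSA and control, Egr1 in macrophage-like cells was the only 1 of the 100 gene-class pairs that passed the test. It was lower in OSA. The other 99 pairs did not pass, and 0 were called higher. The test was edgeR's quasi-likelihood test on counts summed per library and class, with Benjamini-Hochberg adjustment over all genes of the class at 0.05. Over all genes of the 10 classes, 0.133% of gene-class pairs were called lower and 0.157% higher. All 100 pairs passed the filter on low counts, and 11 had an unadjusted p under 0.05. Of all genes, such a p was most frequent in macrophage-like cells (1829 of 12040) and least in Schwann-like cells (479 of 12544). The fitted change was under 0 in 68 pairs and over 0 in 32, and its size was under 1 on the log2 scale in 95. For all genes, the share under 0 ran from 2465 of 5915 in neutrophil-like cells to 7797 of 16007 in mural-like cells. DESeq2's Wald test on the same sums called 2 pairs lower, Egr1 and Jun in macrophage-like cells, and 0 higher. Of all 12040 genes of that class it called 112 lower and 146 higher.

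The direction was most uniform for Egr1 and Atf3. Egr1 had a lower fitted level in OSA in 10 of 10 classes, and every OSA library was below the control in 9. For Atf3 the fitted change was lower in 9 classes, and every OSA library was below the control in 8. Jun was lower in 9 classes, with 3 apart from the control. When each class was limited to its cluster with most control cells, Egr1 was lower in 7 of 10 classes, Atf3 in 9 and Jun in 9. Over all genes, 28.8% of gene-class pairs had every OSA library below the control and 24.0% had every OSA library above it. For the 10 genes these were 41 and 12 of 100 pairs, with the control inside the OSA range in 47. The classes are not independent here, since all of them use the same control library. Nr4a1 and Zfp36 were higher in 6 of 10 classes each, and Nr4a2 in 5. The median change over classes was -0.32 for Egr1 and -0.40 for Atf3, against 0.19 for Nr4a1, 0.15 for Nr4a2 and 0.10 for Zfp36. That of Nr4a1 was 0.00 without OSA replicate 3. That of Nr4a2 was -0.09 with at least 10 counts in each library, with doublets kept and with at least 500 genes per cell. With thinned class totals it was -0.08, and in clusters with at least 20 cells in every library -0.07. That of Zfp36 was -0.03 without TMM and without OSA replicate 3. Both medians were above 0 in the other settings.

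**Figure D2:**
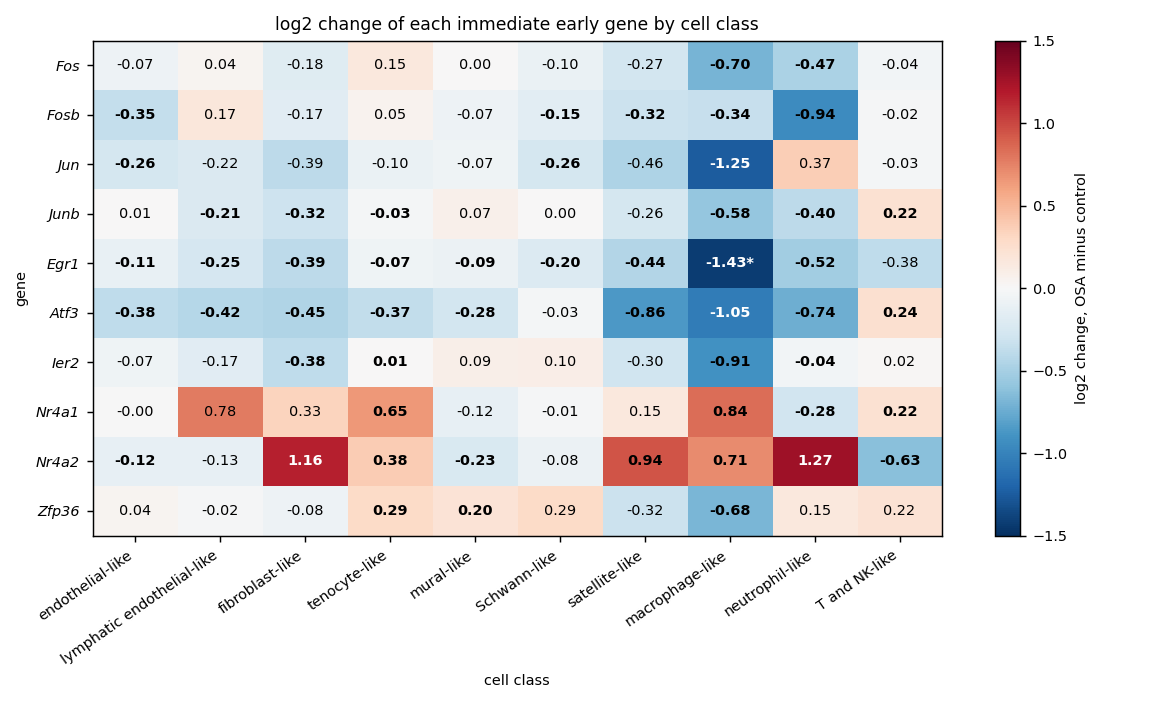
Fitted log2 change, OSA minus control, of each gene (rows) in each class (columns). Blue is lower and red higher in OSA, bold numbers mark pairs in which the control library lay outside the range of the 3 OSA libraries on unscaled levels, and the asterisk marks Egr1 in macrophage-like cells (-1.43), the pair that passed the test.

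Macrophage-like cells, the tissue phagocytes, had a median change of the 10 genes of -0.69, against 0.05 for all genes tested there, and the control lay outside the OSA range for all 10 genes. The clusters that made up the class differed between the groups, and the median was -0.15 in the cluster with most control cells and -0.12 in the 4 clusters shared by all libraries, with 6 of 10 genes lower in each. In both of these settings the median was larger in size in neutrophil-like cells (-0.47). In macrophage-like cells the control was above the 3 OSA libraries for 8 genes, a position held by 33.2% of all genes of the class. It was below them for 2, a position held by 32.2%. Of all 12040 genes tested there, 0.839% were called lower and 0.523% higher. Egr1 stood at 411.0, 443.3 and 239.6 CPM in OSA replicates 1, 2 and 3 and at 993.2 CPM in the control. The OSA libraries were all below the control by more than they differed among themselves. The log2 change was -1.43 ± 0.32 (SE, edgeR adjusted p = 0.0384). Across 17 settings it stayed negative, at -1.69 to -0.73, and passed in 12. It did not pass without OSA replicate 1 (-1.51, edgeR adjusted p = 0.122).

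Among the AP-1 genes of macrophage-like cells none passed. Jun was at 1405, 1574 and 707.3 CPM in OSA and at 2947 CPM in the control, with a log2 change of -1.25 ± 0.36 (edgeR adjusted p = 0.106). Atf3 was at 1361, 1512 and 798.9 CPM in OSA and at 2574 CPM in the control (-1.05 ± 0.33, edgeR adjusted p = 0.140). Both showed the same picture, with OSA replicate 3 lowest and the control highest. Fos was at 2604, 2180 and 1356 CPM in OSA against 3373 CPM in the control (-0.70 ± 0.35). Fosb was at 829.1, 713.2 and 655.5 CPM in OSA against 954.6 CPM in the control (-0.34 ± 0.31). For Fos and Fosb the gap between the control and the nearest OSA library was smaller than the range of the OSA libraries. Junb was at 1405, 1797 and 1160 CPM in OSA against 2212 CPM in the control (-0.58 ± 0.32).

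In macrophage-like cells Ier2 was at 284.6, 325.8 and 195.6 CPM in OSA and at 512.8 CPM in the control (-0.91 ± 0.30, edgeR adjusted p = 0.165). Zfp36 was at 450.4, 476.5 and 239.2 CPM in OSA and at 631.4 CPM in the control (-0.68 ± 0.34, edgeR adjusted p = 0.356). Within the cluster with most control cells and within the shared clusters, the change of Ier2 was -0.09 and -0.24, and that of Zfp36 turned to 0.32 and 0.09. OSA replicate 3 was again the lowest in the whole class, as it was for 8 of the 10 genes in this class. Nr4a1 was at 169.3, 312.6 and 256.6 CPM in OSA and at 142.0 CPM in the control (0.84 ± 0.38, edgeR adjusted p = 0.313). Nr4a2 was at 54.1, 34.0 and 59.0 CPM in OSA and at 31.7 CPM in the control (0.71 ± 0.42, edgeR adjusted p = 0.457). All OSA libraries were above the control for both receptors, and neither passed.

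The macrophage-like class held different cells in the 2 groups. Clusters i0, i2, i10 and i11, those with at least 20 kept cells in every library, held 58.2%, 58.4% and 31.7% of macrophage-like cells in OSA replicates 1, 2 and 3 and 99.0% in the control. The other clusters of the class (i1, i3, i12 and i19) had 0 to 2 kept control cells, and in OSA libraries with at least 20 of their cells Egr1 was between 143.5 and 387.3 CPM. Within cluster i11, led by Folr2 and Cd209f, Egr1 was at 930.2, 750.1 and 711.3 CPM in OSA and at 1334 CPM in the control. In cluster i2, led by MHC class II genes, it was at 489.3, 659.3 and 440.3 CPM in OSA and at 1319 CPM in the control. Every OSA library was below the control in both clusters and also in i10. In i0 the control (373.7 CPM, 29 cells) lay inside the OSA range of 269.0 to 690.5 CPM. Summed over the 4 clusters, the log2 change of Egr1 was -0.77 (edgeR adjusted p = 0.0668), and in i11 alone it was -0.73 (edgeR adjusted p = 1.000). The makeup of the class moved with the result, and how much of the Egr1 change it accounts for was not tested.

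**Figure D3:**
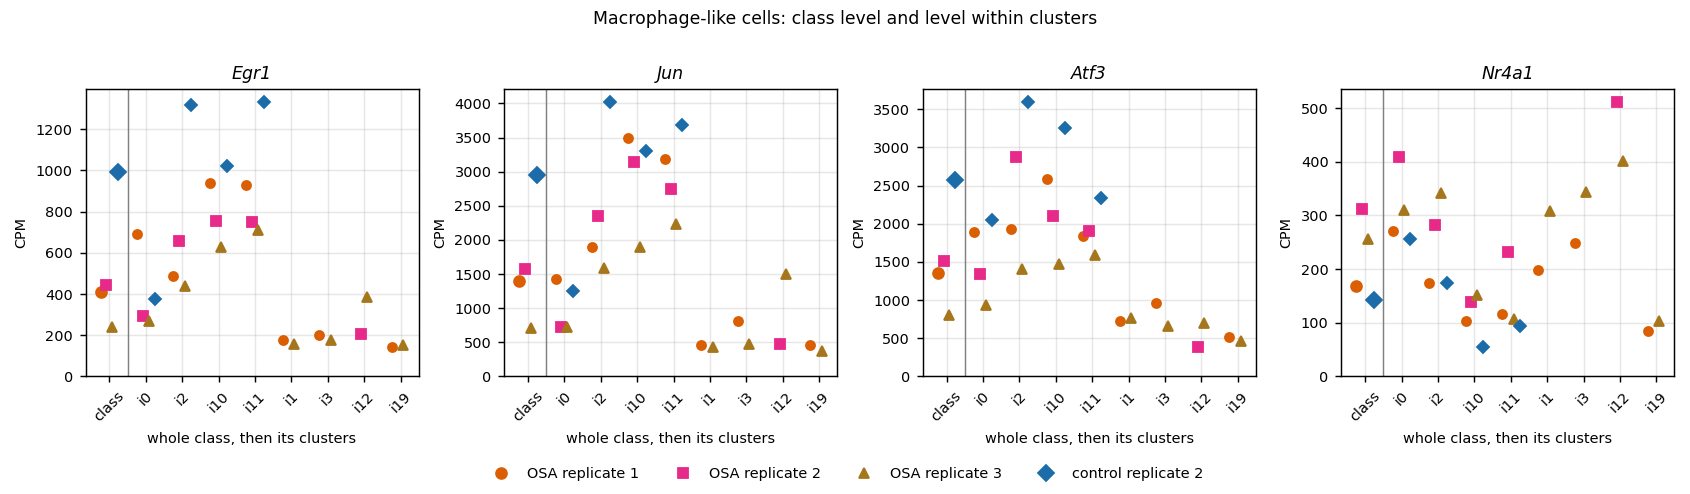
Egr1, Jun, Atf3 and Nr4a1 in macrophage-like cells, in CPM. The first position is the whole class and the others are its clusters, with points for libraries that had at least 20 kept cells of the cluster. Clusters i1, i3, i12 and i19 have no control point, and their Egr1 lies between 143.5 and 387.3 CPM.

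Markers of other cell types were also present in the macrophage-like counts. The 10 fibroblast markers summed to 927, 1230 and 1350 CPM in OSA and to 703 CPM in the control, and the 11 neutrophil markers to 225, 831 and 295 CPM in OSA and to 160 CPM in the control. All 10 fibroblast markers and 4 of the 11 neutrophil markers were detected in every library, and 0 markers of either list were at 0 in every library. The 9 macrophage markers summed to 9990, 10100 and 9080 CPM in OSA and to 11900 CPM in the control. Other lists also lay below the control in every OSA library. Schwann markers summed to 407, 415 and 255 CPM against 476 CPM, and B and plasma markers to 41.3, 38.4 and 29.3 CPM against 97.2 CPM. Lymphatic endothelial markers (498, 836 and 339 against 1160 CPM) and megakaryocyte markers (2250, 3200 and 1660 against 4100 CPM) did too. Of these, Lyve1 and Pf4 are among the leading genes of macrophage-like cluster i10. Fibroblast-like and Schwann-like cells held more Egr1 than macrophage-like cells in every library, and the sums of their markers went opposite ways. The level of free RNA was not measured, and the part of these differences in the Egr1 result was not tested.

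Fibroblast-like cells, which make the connective tissue of the muscle, had 0 of the 10 genes called in edgeR, where 0.0% of all genes were called in either direction. Of all genes of the class 705 had an unadjusted p under 0.05, and by DESeq2's Wald test 31 were called higher and 7 lower. Nr4a2 had the largest change there, at 97.8, 92.7 and 133.9 CPM in OSA against 50.5 CPM in the control. All OSA libraries were above the control, as for 22.2% of all genes of the class. The log2 change was 1.16 ± 0.31 (edgeR adjusted p = 0.622). Leaving out OSA replicate 1, 2 or 3 gave 1.26, 1.28 and 0.91, with edgeR adjusted p = 0.0081, 0.0259 and 0.0439. These fits called 195, 183 and 44 of all genes of the class higher and 57, 15 and 9 lower, against 0 with all libraries. Whether Nr4a2 passed thus depended on the set of libraries. Without a filter on low counts it also passed (1.17, edgeR adjusted p = 0.0068), where 120 genes were called higher and 30 lower. The class held different cells in the 2 groups, since cluster 21, led by Saa3, had 69, 19 and 709 cells in OSA replicates 1, 2 and 3 and 0 in the control. In the 2 clusters with at least 20 cells in every library, which held 95.2%, 99.0% and 78.8% of the class in OSA and 97.0% in the control, the change of Nr4a2 was 0.97 and the median of the 10 genes was -0.13 in place of -0.25. In cluster 16 alone, that with most control cells, the change of Nr4a2 was 0.69, and the part of the makeup in these changes was not tested. Nr4a1 was at 616.7, 855.8 and 792.2 CPM in OSA against 623.9 CPM in the control, which lay inside the OSA range.

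In the same cells Junb, Egr1, Atf3 and Ier2 had every OSA library below the control, as had 27.2% of all genes of the class. Egr1 was at 2128, 1787 and 1482 CPM in OSA against 2416 CPM in the control (-0.39 ± 0.30). Atf3 was at 2078, 1653 and 1156 CPM in OSA against 2271 CPM in the control (-0.45 ± 0.32). For both, the OSA libraries differed among themselves by more than the nearest of them did from the control. Junb was at 2872, 2319 and 2114 CPM in OSA against 3119 CPM in the control (-0.32 ± 0.30). Ier2 was at 1088, 684.8 and 769.4 CPM in OSA against 1137 CPM in the control (-0.38 ± 0.30). OSA replicate 1 was the nearest to the control for each of these genes. Fos was at 8005, 5115 and 4443 CPM in OSA against 6805 CPM in the control. Jun was at 4761, 3090 and 2343 CPM in OSA against 4548 CPM in the control. Fosb was at 2122, 1561 and 1341 CPM in OSA against 1935 CPM in the control. OSA replicate 1 exceeded the control for these 3 genes, and the other OSA libraries were below it. Zfp36 was at 1056, 671.9 and 675.6 CPM in OSA against 867.6 CPM in the control, again inside the OSA range.

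In satellite-like cells OSA replicate 2 had the lowest level of the 3 OSA libraries for 9 of the 10 genes. Fos was at 7433, 2901 and 5068 CPM in OSA replicates 1, 2 and 3 and at 6311 CPM in the control. Zfp36 was at 521.2, 161.7 and 370.8 CPM in OSA and at 447.3 CPM in the control. For both the control lay inside the OSA range. Atf3 was at 922.5, 475.2 and 668.3 CPM in OSA and at 1275 CPM in the control, with all OSA libraries below it, as for 26.2% of all genes of the class. Its log2 change was -0.86 ± 0.27 (edgeR adjusted p = 0.286), and it passed without OSA replicate 3 (-0.90, edgeR adjusted p = 2.5e-04). That fit called 57 of all genes of the class higher and 48 lower, against 8 and 9 with all libraries. Nr4a2 was at 25.8, 24.5 and 34.5 CPM in OSA and at 14.9 CPM in the control (0.94 ± 0.40, edgeR adjusted p = 0.654). All OSA libraries were above the control, as for 25.0% of all genes of the class. Of all genes tested in satellite-like cells 0.0736% were called higher and 0.0828% lower.

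In the vascular and neural classes the largest fitted change was that of Nr4a1 in lymphatic endothelial-like cells (0.78). No other was larger in size than that of Atf3 in the same cells (-0.42). In endothelial-like cells, the largest class, 8 of 10 genes had a fitted level below the control, and the log2 changes ran from -0.38 to 0.04 (median -0.09). In cluster 3 alone, that with most control cells, 3 of 10 were lower and the median was 0.19. Cluster 7, led by Aqp1 and Lpl, had 1034, 1670 and 2379 cells in OSA replicates 1, 2 and 3 and 249 in the control, and the part of this makeup in the changes was not tested. In that class 5 genes had every OSA library below it, against 31.0% of all genes of the class, and 0 had every OSA library above it, against 21.5%. Atf3 had the largest change, with 781.2, 673.4 and 637.6 CPM in OSA and 944.4 CPM in the control (-0.38 ± 0.19, edgeR adjusted p = 0.950). None of the 10 was called, and neither was any other gene of the class (0.0% in either direction in edgeR, with 837 genes at an unadjusted p under 0.05, and 36 higher and 6 lower by DESeq2). In mural-like cells, which wrap the vessels, the changes went from -0.28 (Atf3) to 0.20 (Zfp36). Every OSA library was below the control for 3 genes, against 28.5% of all genes of the class, and above it for 1, Zfp36, against 21.5%. Of all genes there 0.05% were called higher and 0.0% lower. Schwann-like cells had changes from -0.26 (Jun) to 0.29 (Zfp36), and in them Nr4a2, at its highest level of all classes, changed by -0.08 ± 0.26. For 3 genes every OSA library was below the control there, against 23.8% of all genes of the class, and for 0 above it, against 20.3%. Of all genes of the class 0.136% were called higher and 0.0159% lower. Lymphatic endothelial-like cells had Nr4a1 at 180.2, 275.7 and 444.9 CPM in OSA and at 181.6 CPM in the control (0.78 ± 0.29, edgeR adjusted p = 0.412). OSA replicate 1 was at the control level and OSA replicate 3 was the highest. In that class 3 genes had every OSA library below the control, against 26.8% of all genes, and 0 had every OSA library above it, against 24.8%. Of all genes there 0.305% were called higher and 0.0814% lower. Without OSA replicate 1 the change of Nr4a1 was 1.06 (edgeR adjusted p = 0.0079). That fit called 75 of all genes of the class higher and 52 lower, against 30 and 8 with all libraries.

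Tenocyte-like cells, the matrix-making cells of tendon, had Nr4a1 at 301.8, 515.8 and 448.3 CPM in OSA and at 289.8 CPM in the control (0.65 ± 0.32, edgeR adjusted p = 0.988). Every OSA library was above the control for Nr4a1, Nr4a2 and Zfp36, against 20.2% of all genes of the class, and below it for Junb, Egr1, Atf3 and Ier2, against 33.5%. On the TMM scale the change of Ier2 was 0.01 and that of Junb -0.03. Of all genes of the class 0.0319% were called lower and 0.0% higher. In T and NK-like cells 3 genes had every OSA library above the control, against 33.7% of all genes of the class, and Nr4a2, with 226.5, 304.1 and 219.0 CPM in OSA and 358.1 CPM in the control, had every OSA library below it, against 20.2%. Its log2 change was -0.63 ± 0.27 (edgeR adjusted p = 0.391). Neutrophil-like cells had 43 control cells, and 7 of 10 genes had every OSA library below the control, against 39.3% of all genes of the class. Nr4a2 alone had every OSA library above the control, against 26.0%, with a count of 1 in the control. Of all genes there 0.0% were called in either direction in edgeR or DESeq2, with 347 at an unadjusted edgeR p under 0.05. OSA replicate 2 was lowest of the OSA libraries for 9 genes there. Its neutrophil-like cells included 187 cells of a cluster led by granule genes (Camp, Ngp and Ltf), against 0 and 3 such cells in OSA replicates 1 and 3 and 0 in the control. Without TMM the median change of all genes of the class was -0.10 in place of 0.22, and in T and NK-like cells it was 0.14 in place of 0.03.

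In whole libraries, where cell makeup and level are mixed, 0 of the 10 genes were called by edgeR, where 0.0% of all 20888 genes were called in either direction, and 0 of the 10 had an unadjusted p under 0.05. Of all genes 659 had one, and DESeq2 called 126 higher and 7 lower, with 0 of the 10 among them. The median change of the 10 genes was -0.14, and that of all genes 0.01. The largest was that of Atf3, with 1319, 1151 and 972.0 CPM in OSA and 1575 CPM in the control (-0.37 ± 0.25). For 6 genes every OSA library was below the control, against 31.8% of all genes, and for 0 above it, against 18.8%. With the class makeup fixed to the mean of the libraries, the median log2 ratio of the unscaled levels was -0.22, against -0.24 as measured. Nr4a2 turned from -0.21 to 0.04, and Nr4a1 went from 0.04 to 0.13. Only the 10 tested classes were weighted, and the makeup within a class was not fixed.

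Heat shock chaperone genes, which tissue dissociation also induces, were read beside the 10 genes. In macrophage-like cells 10 of the 12 had lower fitted levels and their median was -0.54, where the median of all genes was 0.05. The list summed to 5503, 6933 and 6224 CPM in OSA and to 8756 CPM in the control, so it lay on the same side as the immediate early genes in this class. In satellite-like cells 11 of 12 were lower (median -0.57), with sums of 10360, 8335 and 9918 CPM in OSA and of 12220 CPM in the control. In T and NK-like cells 10 of 12 were lower (median -0.49), where the median of the 10 immediate early genes was 0.00. In mural-like cells 9 of 12 were higher (median 0.19), and in endothelial-like cells 6 of 12 (median 0.00). In neutrophil-like cells 9 of 12 were higher (median 0.80). The median of all genes there was 0.22, and that of the 10 immediate early genes -0.34. On unscaled levels the list summed there to 2344, 2172 and 5111 CPM in OSA and to 2436 CPM in the control. Over the 10 classes 0 of 120 chaperone pairs were called lower by edgeR, and 17 had a lower level with an unadjusted p under 0.05. Of all genes, in either direction, 1829 of 12040 had such a p in macrophage-like cells and 479 of 12544 in Schwann-like cells, the highest and lowest shares. DESeq2's Wald test called 3 lower, all in macrophage-like cells, the chaperone genes Hspa1a (-1.19, DESeq2 adjusted p = 0.0166), Hspa1b (-1.35, 0.0148) and Hsp90aa1 (-1.03, 0.0346). Of all 12040 genes of that class it called 112 lower and 146 higher. The Hspa1a and Hspa1b transcripts are near-identical, so their counts may be split between them. Hspb1, a small heat shock protein gene, rose in Schwann-like cells, with 284.3, 372.8 and 389.9 CPM in OSA and 169.5 CPM in the control (1.06 ± 0.26, edgeR adjusted p = 0.0271). It passed in 9 of 17 settings, and not by DESeq2's Wald test (1.07, DESeq2 adjusted p = 0.209), which called 0 chaperone pairs higher, nor without OSA replicate 1, 2 or 3 (1.21, 1.03 and 0.94, edgeR adjusted p = 0.0641, 0.118 and 0.0736). The part of the dissociation in these differences was not tested, and the libraries carry no label of dissociation time or temperature.

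Other immediate early and early response genes gave 2 calls. Of 31 measured in macrophage-like cells, 23 had lower fitted levels (median -0.49) and 1 was called. Dusp5, a nuclear phosphatase of ERK, rose to 48.3, 39.6 and 52.6 CPM in OSA, against 13.8 CPM in the control (1.83 ± 0.42, edgeR adjusted p = 0.0445). It did not pass in the shared clusters (0.99, edgeR adjusted p = 0.427), without TMM (1.77, edgeR adjusted p = 0.0692) or without OSA replicate 1 (1.84, edgeR adjusted p = 0.0627). By DESeq2's Wald test Btg2, an antiproliferative gene, and Ppp1r15a, a stress-induced phosphatase subunit gene, were also called there, both lower in OSA (-1.08 and -1.26, DESeq2 adjusted p = 0.0344 and 0.0106). Of all 12040 genes of that class the Wald test called 112 lower and 146 higher. In T and NK-like cells 14 of 27 had lower fitted levels and Dusp2, another nuclear phosphatase of MAP kinases, fell to 117.5, 123.4 and 92.0 CPM in OSA, against 328.4 CPM in the control (-1.68 ± 0.27, edgeR adjusted p = 1.4e-04). The makeup of this class also moved, since cluster i15, led by Ccl5 and Gzma, held 39.8%, 27.4% and 23.0% of it in OSA and 80.0% in the control, and cluster i20, with Trdc among its leading genes, had 31, 30 and 108 cells in OSA and 5 in the control. Within i15 Dusp2 was not called (-0.61, edgeR adjusted p = 0.997), and in the shared clusters i4 and i15 it was (-1.17, edgeR adjusted p = 0.0354). In T and NK-like cells 0.48% of all genes were called lower and 0.818% higher. In tenocyte-like cells 24 of 31 had higher fitted levels (median 0.13). Of 17 upstream factors, among them Srf, Creb1 and the MAP kinase genes, 0 were called in any class, and their median in macrophage-like cells was -0.04. At an unadjusted edgeR p under 0.05 there were 6 higher and 4 lower of their 160 gene-class pairs, and DESeq2 called 0.

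The change was also compared between classes, each set against endothelial-like cells in a model with the library as a block. Of 90 gene-class differences 0 passed in edgeR, and 17 had an unadjusted p under 0.05, 6 of them in macrophage-like cells. How many differences of all genes had such a p was not counted. Over all genes, 1.04% of differences were called between macrophage-like and endothelial-like cells. For Egr1 that difference was -1.29 ± 0.33 (edgeR adjusted p = 0.0777). It passed without OSA replicate 2 (-1.46, edgeR adjusted p = 0.0010) and without OSA replicate 3 (-1.02, edgeR adjusted p = 0.0285), and it did not pass without OSA replicate 1 (-1.39, edgeR adjusted p = 0.173). In that order, these fits called 495, 200 and 42 differences of all genes higher and 511, 189 and 50 lower. With all libraries there were 81 higher and 92 lower. Nr4a2 in fibroblast-like cells differed by 1.25 ± 0.26 (edgeR adjusted p = 0.293), where 0.0% of all genes were called. It passed without OSA replicate 3 (1.05, edgeR adjusted p = 0.0024), where 21 differences of all genes were called higher and 15 lower. With the 3 OSA libraries, then, none of the 10 genes was shown to change differently in any class than in endothelial-like cells.

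Cell by cell, most classes had several of the 10 genes detected together. Cells were thinned to 1500 UMIs each so that depth did not set the number, and cells with fewer UMIs were left out. Macrophage-like cells held 4.97, 4.75 and 4.31 of the genes on average in OSA replicates 1, 2 and 3 and 6.20 in the control. At least 5 genes were present in 58.3%, 54.6% and 44.6% of them in OSA and in 88.0% in the control (168 of 191 cells, exact binomial 95% interval 82.5 to 92.2). Egr1 was detected in 42.2%, 38.0% and 26.4% of macrophage-like cells in OSA and in 67.5% in the control (60.4 to 74.1). All OSA libraries were below the control, and an exact two-sided permutation test over the libraries gave p = 0.25, the smallest it can give with 3 against 1. The median depth before thinning was 7043, 5145 and 5742 UMIs in OSA and 6502 UMIs in the control. Without thinning the difference in the Egr1 share was -21.4 percentage points, against -32.0 at 1500 UMIs. The share with at least 5 genes was then 91.9%, 82.8% and 84.3% in OSA and 97.0% in the control, a difference of -10.7 percentage points against -35.5 at 1500 UMIs.

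No class is known to lack these genes, so the background from free RNA could not be read from a class. The class with the lowest Egr1 level is given beside the macrophage-like cells. In T and NK-like cells Egr1 was detected in 22.7%, 19.3% and 20.4% of thinned cells in OSA and in 20.6% in the control (13.9 to 28.7). The macrophage-like shares were above these in every library, but in OSA replicate 3 the intervals overlapped (23.9 to 28.9 and 14.5 to 27.4). T and NK-like cells may make Egr1 themselves, so the comparison cannot tell how much of either share was free RNA. Neutrophil-like cells held 5.59, 3.99 and 5.14 of the genes in OSA and 6.16 in the control. The control value came from 32 cells, with 11 left out for low depth, and in OSA 30, 62 and 79 were left out. Without thinning the neutrophil-like values were 6.24, 5.47 and 5.45 in OSA and 6.21 in the control, inside the OSA range. At 1500 UMIs fibroblast-like cells held 7.18, 6.70 and 6.62 in OSA and 7.05 in the control, inside the OSA range. T and NK-like cells held 4.36, 4.42 and 4.25 in OSA and 4.24 in the control. The intervals cover counting error only.

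**Figure D4:**
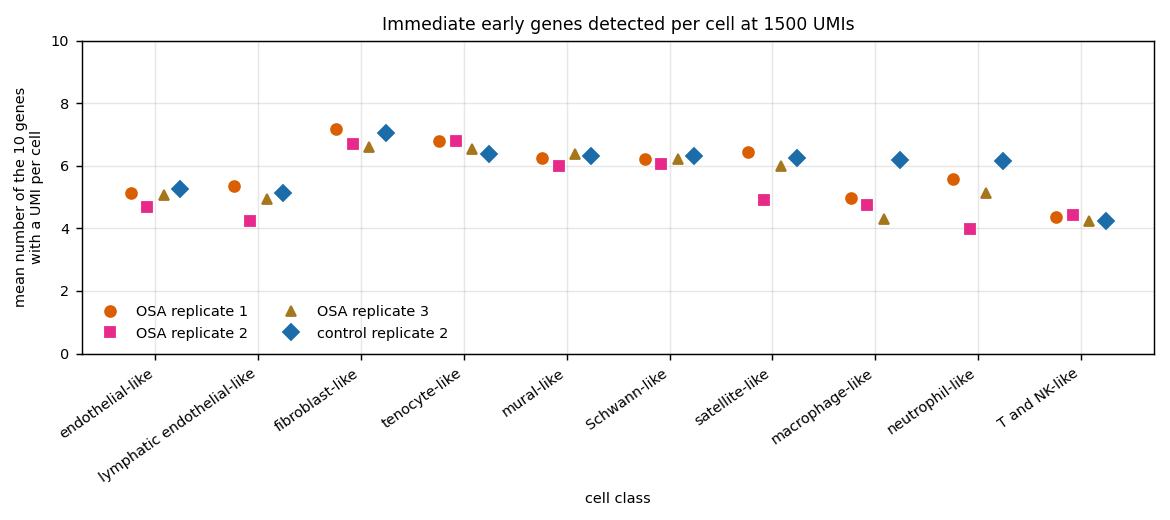
Mean number of the 10 genes with at least 1 UMI in a cell thinned to 1500 UMIs, by class. Points are single libraries (OSA replicates 1, 2 and 3, then control replicate 2). In macrophage-like cells the 3 OSA libraries (4.31 to 4.97) lie below the control (6.20), and in fibroblast-like cells the control (7.05) lies within them.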

How the data were processed

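Whole-number UMI counts per gene and barcode were deposited by the authors, made with Cell Ranger 9.0.1 per the file headers, on GRCm39 per the submitters' processing notes. A kept barcode had at least 300 genes, at least 500 UMIs and at most 20% of mitochondrial UMIs (17 to 31 were removed in each library). Scrublet doublets (358 to 574 a library) were left out of sums. Any 2 of the 6 barcode lists shared 41 to 67 barcodes, and every pair of matrices differed beyond sampling noise over genes (chi-square per degree of freedom 48.8 to 293.3). Counts scaled to 10000 per cell gave 2000 variable genes, 30 principal components and Leiden clusters at resolution 1 (scanpy 1.11.5), after 8 genes of the early response and heat shock lists were taken out. Immune cells were clustered again, and the letter i marks those clusters.

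Class names came from 21 marker lists, with at least 3 markers, by folds against all other cells. The naming order and the limit of 20 cells for clusters compared within a class were set after a first look at the clusters. The 10 genes and all lists were chosen with earlier results of these data known. All 10 genes are named. Values per library are given for every called pair and for all 10 genes in macrophage-like and fibroblast-like cells, and other pairs named in the text were chosen after their values were seen.

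Counts were summed per library and class and tested for OSA minus control with edgeR 4.0.16 in R 4.3.3 (filterByExpr, TMM, robust quasi-likelihood, 2 residual degrees of freedom), two-sided, with Benjamini-Hochberg adjustment within a class at 0.05. The fit was also run on data simulated from the macrophage-like and fibroblast-like sums. That simulation gave all libraries the same spread, so it cannot check the spread assumed for the lone control. Log2 changes are on the TMM scale, and levels are unscaled class totals. DESeq2 1.42.0, other scalings, filters, clusterings, left-out OSA libraries and thinned counts were the alternatives. UMI counting makes duplicates of 1 molecule count once, and cells of 1 library are not replicates.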

Additional observations from a re-analysis of the deposited data

Results flagged for a closer look

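For 5 genes, every OSA library was above the control in at least 1 cell class and below it in at least 1 other, on unscaled levels. Over all genes, every OSA library was above the control in 24.0% of gene-class pairs and below it in 28.8%. How many of all genes had both was not counted. The classes above and below numbered 1 and 5 for Junb, 1 and 8 for Atf3 and 3 and 1 for Nr4a1. They numbered 5 and 3 for Nr4a2 and 2 and 1 for Zfp36, and 1 pair of classes is given for each gene. Each difference given here is that between the 2 log2 changes, and these differences between classes were not tested. Junb was higher in T and NK-like cells and lower in macrophage-like cells, a difference of 0.80. Atf3 was higher in T and NK-like cells and lower in macrophage-like cells, a difference of 1.29. Nr4a1 was higher in macrophage-like cells and lower in neutrophil-like cells, a difference of 1.12. Nr4a2 was higher in fibroblast-like cells and lower in T and NK-like cells, a difference of 1.79. Zfp36 was higher in tenocyte-like cells and lower in macrophage-like cells, a difference of 0.98. Some of these directions turned when a class was limited to its cluster with most control cells, to 0.32 for Zfp36 and 0.04 for Junb in macrophage-like cells, -0.24 for Junb in T and NK-like cells and 0.09 for Nr4a1 in neutrophil-like cells. In the clusters with at least 20 cells in every library, Zfp36 turned to 0.09 in macrophage-like cells and Nr4a1 to 0.09 in neutrophil-like cells, and with doublets kept Atf3 turned to -0.04 in T and NK-like cells.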

How the results depend on the processing

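Of the alternatives to the 100 gene-class pairs, the count called lower (1 in the analysis reported) was 2 with DESeq2's Wald test, with no filter on low counts, with the early response genes kept in the clustering and with class totals thinned to the lowest library. It was 0 with library totals and no TMM, at Leiden resolution 2, in the cluster with most control cells and in clusters with at least 20 cells in every library, an alternative chosen after seeing the data. The count called higher (0) was 1 with no filter. Leaving out 1 OSA library at a time gave 0 to 4 lower and 1 to 2 higher calls, 0 called genes in whole libraries, and 2 to 5 called differences between classes (0 with all libraries). Calls over all genes moved as well. In macrophage-like cells they were 65, 518 and 154 higher and 85, 528 and 172 lower without OSA replicates 1, 2 and 3, against 63 and 101. Egr1 in macrophage-like cells fell short of the threshold with no TMM (-1.45, edgeR adjusted p = 0.0712), at Leiden resolution 2 (-1.30, 0.0591), in the cluster with most control cells (-0.73), in the shared clusters (-0.77) and without OSA replicate 1 (fits leaving out 1 OSA library gave -1.54 to -1.24). Of the 100 pairs, the sign turned in 21 of 99 in the cluster with most control cells, 10 of 99 in the shared clusters, 10, 13 and 15 without OSA replicates 1, 2 and 3, 10 without TMM, 8 with doublets kept (among them Nr4a2 in neutrophil-like cells, 1.27 in the analysis reported and -0.57 there) and 1 to 6 in each other setting. Among the macrophage-like and fibroblast-like pairs followed one by one, they were Fosb in the shared clusters (0.042), Junb in the cluster with most control cells (0.036) and Zfp36 in both (0.317 for the cluster with most control cells and 0.085 for the shared clusters) for macrophage-like cells, and Zfp36 in fibroblast-like cells without OSA replicate 2 (0.049, with fits leaving out 1 OSA library from -0.28 to 0.049) and in the shared clusters (0.017). The cause was not tested. Satellite-like cells were not a separate class at resolution 0.5 or with at least 500 genes per cell, and gave no value there. No paired analysis was possible because the OSA and control libraries with matrices share only replicate number 2. Depth limits Nr4a2 most, with a lowest count of 1 in control neutrophil-like cells.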
